A study of Mus musculus with 258 samples.

Results

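The claudins, cadherins and integrins are the membrane proteins by which epithelial cells hold to each other and to the matrix around them. They were compared here between sorted endocrine progenitors and insulin-producing cells of the embryonic mouse pancreas. Members were taken by gene symbol: every numbered claudin, cadherin, integrin alpha and integrin beta gene in the count tables, the tight junction scaffold genes of the Tjp family, and Ocln and Epcam. Cldn5, Cdh5 and Itgb2 were left out, the first 2 being endothelial genes and the last a leukocyte gene. This gave 71 of 40824 genes: 24 claudins, 22 cadherins, 13 integrin alpha chains, 7 integrin beta chains and the 5 named last. By gene identifier, 2 genes listed as claudins carry other names in the reference: Cldn25 is Cldnd1 and Cldn26 is Tmem114, a tetraspan protein related to claudins, and the current names are used here.

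Claudins are the strand-forming proteins of tight junctions, and the claudins a cell makes set which ions pass between cells. Occludin and the zonula occludens scaffolds, such as those encoded by Tjp1 and Tjp3, sit with them, the latter tying the strands to actin. Classical cadherins bind the same kind of cadherin on the neighbouring cell and are anchored through catenins. Integrins are pairs of an alpha and a beta chain that bind matrix such as laminin, collagen and fibronectin. Endocrine progenitors arise within the pancreatic epithelium and leave it as they differentiate, and mature islet cells are known to use both E-cadherin (Cdh1) and N-cadherin (Cdh2).

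The study asked how endocrine cells are specified and what the histone demethylase Jmjd3, encoded by Kdm6b, does in that process. Bulk RNA was measured in 3 sorted groups of 2 libraries each. The Ngn3-low and Ngn3-high groups were sorted at E13.5 from the dorsal pancreas of Ngn3-GFP embryos, in which a green fluorescent protein reports Ngn3, the product of Neurog3. Ins1-RFP+ cells, described by the submitters as nascent beta cells, were sorted at E17.5 from embryos with a red fluorescent reporter of Ins1. They differ from the E13.5 groups in embryonic day, reporter and sort as well as in cell state, and these cannot be told apart. Words such as rise, fall, step, entry and exit name differences between sorted groups, not cells followed over time. Single cells of E13.5 dorsal pancreas were sequenced in 4 groups by Smart-seq2, a full-length method in which reads carry no molecular identifiers. These were 49 WT Ngn3-low, 59 WT Ngn3-high, 69 Jmjd3-deleted Ngn3-low and 44 Jmjd3-deleted Ngn3-high cells. The deleted cells carried Pdx1-Cre, which is active in pancreatic progenitors, and Jmjd3 fl/fl. The labels name no Cre in the WT cells and no animals behind libraries or cells, so p-values measure the spread between libraries, which may be technical. Each single-cell group counts as 1 sample, and in the deleted cells the Cre and the loss of Jmjd3 cannot be told apart.

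The upstream sequences of 4 members are printed because they carry the main contrasts described next. Cldn3 and Cldn4 lie 39279 bases apart on chromosome 5 and moved in opposite directions. Cldn11 and Itga11 were the claudin and the integrin alpha chain with the largest rise of their lists in bulk Ngn3-high cells among those that reached 10 CPM (counts-per-million of the reads in genes). Each stretch is the 250 bases before the annotated start in RefSeq (GRCm38.p6), written 5′ to 3′ on the strand of the gene, and capitals mark each E-box of the form CANNTG. E-boxes are the sites of basic helix-loop-helix factors such as Ngn3, and the form CAGGTG is also known as a site of Snail and Zeb repressors. Cldn3 spans chr5:134985964-134986213 on the plus strand, Cldn4 chr5:134946935-134947184 on the minus strand, Cldn11 chr3:31149670-31149919 on the plus strand and Itga11 chr9:62677605-62677854 on the plus strand.
Cldn3: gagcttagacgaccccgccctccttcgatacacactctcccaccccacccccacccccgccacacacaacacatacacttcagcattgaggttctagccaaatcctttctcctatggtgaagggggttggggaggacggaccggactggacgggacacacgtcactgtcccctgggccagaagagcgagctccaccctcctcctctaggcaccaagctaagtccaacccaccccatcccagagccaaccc
Cldn4: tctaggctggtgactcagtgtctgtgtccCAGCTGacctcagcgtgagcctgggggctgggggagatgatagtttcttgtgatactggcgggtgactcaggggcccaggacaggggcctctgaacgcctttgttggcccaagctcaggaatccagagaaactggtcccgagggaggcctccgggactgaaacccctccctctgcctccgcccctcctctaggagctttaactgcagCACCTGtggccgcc
Cldn11: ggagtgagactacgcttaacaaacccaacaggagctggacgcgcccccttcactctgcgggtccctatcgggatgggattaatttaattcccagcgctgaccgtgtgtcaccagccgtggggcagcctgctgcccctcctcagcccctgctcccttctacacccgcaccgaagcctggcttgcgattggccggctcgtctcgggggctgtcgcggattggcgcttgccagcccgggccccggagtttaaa
Itga11: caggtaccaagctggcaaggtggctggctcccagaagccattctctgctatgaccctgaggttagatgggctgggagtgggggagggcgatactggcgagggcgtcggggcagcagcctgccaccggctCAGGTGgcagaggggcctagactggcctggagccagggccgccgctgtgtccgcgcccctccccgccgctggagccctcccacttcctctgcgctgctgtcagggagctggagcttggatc
The Cldn4 stretch holds 2 E-boxes, 1 of them CAGGTG read on the opposite strand as CACCTG and 1 CAGCTG. The Itga11 stretch holds 1, of the form CAGGTG, and the Cldn3 and Cldn11 stretches hold 0. Upstream windows were on hand for 53 of the 71 members (67 windows, searched on both strands). CAGGTG, itself a form of CANNTG, occurred in 23.9% of the member windows and in 17.2% of all 32851 windows of this length. Among the junction genes with CAGGTG were Cldn4, Cldn6, Cldn7, Epcam, Ocln and Tjp3. The form CAGCTG was also more frequent in the member windows, at 19.4%, than in all windows. The form CAGATG went the other way, at 5.97% of the member windows and 14.4% of all windows. These differences were not tested. CANNTG of any form occurred in 64.2% of the member windows and in 66.2% of all windows, so most promoters hold it.

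Bulk libraries held 11957415 to 17760214 reads in genes, and levels are given as CPM without spike-in sequences. Neurog3 was at 193 and 161 CPM in Ngn3-low and 1191 and 1090 in Ngn3-high libraries, the order these gates select for. It was at 28.2 and 26.99 CPM in the Ins1-RFP+ libraries, which were sorted on another reporter. Markers of other cell types differed between libraries. The summed level of 11 white blood cell markers was 2816 and 2339 CPM in the bulk Ngn3-low libraries, 36.7 and 27.4 in Ngn3-high and 33.2 and 67.03 in Ins1-RFP+. The 11 endothelial markers summed to 486 and 531, 15.7 and 9.87, and 61.7 and 73.5 CPM. Ins1-RFP+ library 2 stood apart in 10 acinar genes, at 21490 CPM against 1259 in library 1, and in 10 mesenchymal genes, at 724 against 193 CPM. In bulk samples, fewer cells of a type and less RNA per cell cannot be told apart.

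From Ngn3-low to Ngn3-high cells most of the adhesion genes fell, and integrins made up the largest share of those that did. Of the 55 members with enough reads to be tested, 12 were higher and 34 lower in Ngn3-high cells by edgeR's quasi-likelihood test at an adjusted p of 0.05, beside 27.7% higher and 30.2% lower among all 15684 genes tested. Their median log2 difference was −1.01, against −0.01 over all genes. Between Ngn3-high and Ins1-RFP+ cells 20 rose and 17 fell, beside 26.1% and 24.9% of all genes, with a median of −0.03. The 16 untested members were 9 claudins and 7 cadherins, of which 5 claudins had no read in any bulk library. The 3 bulk comparisons share libraries, so a high value in Ngn3-high cells enters 2 of them.

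Claudins went in both directions. In Ngn3-high against Ngn3-low cells 5 of 15 tested claudins were higher and 7 lower, beside 27.7% and 30.2% of all genes. Cldn4, a widely expressed epithelial claudin, was at 149 and 147 CPM in Ngn3-low, 555 and 486 in Ngn3-high and 138 and 113 in Ins1-RFP+ libraries. The Ngn3-high libraries stood above all others, with a log2 difference of 1.90 (SE 0.15, adjusted p 1.09e-05) on entry and −1.97 (SE 0.15, adjusted p 2.4e-05) on exit. Its neighbour Cldn3 did the opposite on entry, at 136 and 133 CPM in Ngn3-low, 36.5 and 28.4 in Ngn3-high and 35.1 and 38.1 in Ins1-RFP+. That fall was −1.97 (SE 0.14, adjusted p 7.39e-06), and Ins1-RFP+ and Ngn3-high libraries did not differ by the test (0.25, adjusted p 0.165).

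Cldn11, best known from myelin and testis, was nearly silent in Ngn3-low cells at 1.24 and 2.21 CPM and rose to 41.6 and 45.9 CPM in Ngn3-high cells. In Ins1-RFP+ cells it was at 17.7 and 19.8 CPM, between the other groups without overlap (log2 difference 4.79, SE 0.24, and then −1.14, SE 0.19). Cldn12 and Cldn23 rose more modestly, by 0.62 (SE 0.11) and 1.18 (SE 0.27). Cldn12 was then far lower in Ins1-RFP+ cells, at 45.9 and 40.6 CPM against 153 and 150 in Ngn3-high cells (−1.73, SE 0.12, adjusted p 1.50e-05). That was also below Ngn3-low libraries, at 109 and 100 CPM (−1.11, SE 0.12, adjusted p 5.3e-05). Tmem114 had no read in either Ngn3-low library and 3.62 and 3.85 CPM in the Ngn3-high libraries, at least 37.1-fold higher when the floor is 3 counts over the group. In Ins1-RFP+ cells it was back at 0.06 and 0 CPM. In summed single cells it was at 1.65 CPM in WT and 4.40 CPM in deleted Ngn3-high cells and at most 0.019 CPM in Ngn3-low cells.

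The claudins that fell were Cldn3, Cldn8, Cldn9 and Cldn10 among those above 5 CPM in Ngn3-low cells. Cldn9 dropped from 23.4 and 20.1 CPM to 2.97 and 3.26, and read 1.005 and 1.57 CPM in Ins1-RFP+ cells. Its neighbour Cldn6, a claudin of embryonic epithelia, was more abundant per kilobase, and its bulk difference on entry did not pass the test. The annotated spans of both genes lie 137 bases apart on chromosome 17. Cldn6 was at 332 and 310, 264 and 222, and 65.8 and 63.2 CPM, a difference of −0.32 (adjusted p 0.0582) on entry and −1.83 (SE 0.13, adjusted p 1.99e-05) on exit. Cldn8, a barrier claudin of tubular epithelia, fell from 9.01 and 9.90 CPM to 0.47 and 0.25, a difference of −4.53 (SE 0.36), or −5.13 without Ngn3-high library 1. Cldn7 passed the test in no comparison, with group means of 104 ± 4.93, 100.6 ± 15.4 and 89.6 ± 14.3 CPM (SD, n = 2).

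Cldn10, a pore-forming claudin known from secretory and ductal epithelia, fell from 28.4 and 28.7 CPM to 1.72 and 2.93 (−3.57, SE 0.71, adjusted p 0.00263). It then read 3.77 CPM in Ins1-RFP+ library 1 and 21.7 CPM in library 2. The rise against Ngn3-high cells was 2.55 (adjusted p 0.0170) with both libraries and 0.84 (adjusted p 0.0535) without library 2, the library with 21490 CPM of acinar genes. It was also lost without either Ngn3-high library (adjusted p 0.133 and 0.0656). The part of that acinar signal in the Cldn10 value was not tested.

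**Figure D1:**
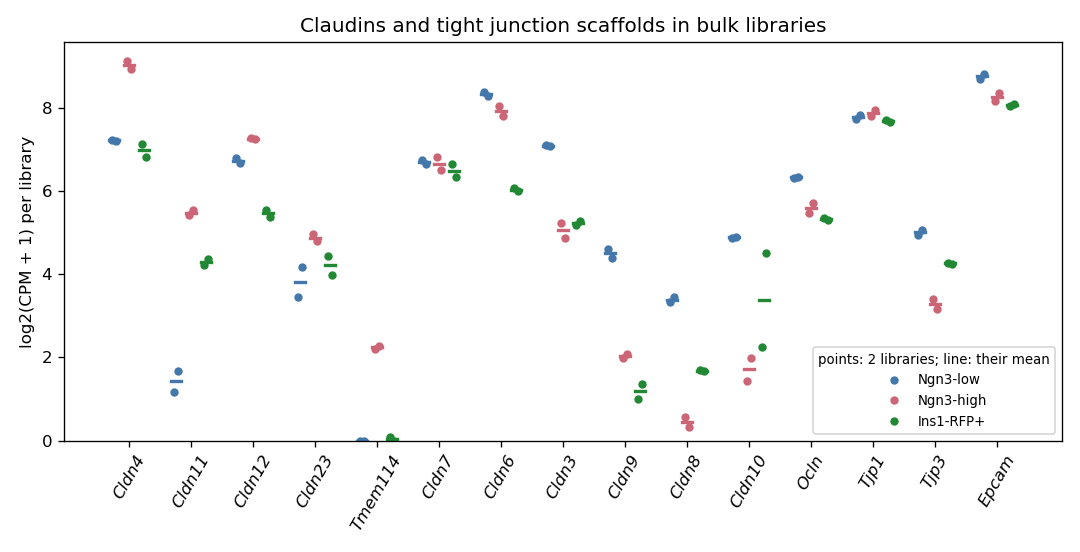
Levels of 15 claudins and tight junction genes in the 6 bulk libraries, as log2(CPM + 1); points are libraries, lines the mean of 2. Cldn4 and Cldn11 are highest in Ngn3-high cells, Cldn3 and Cldn9 highest in Ngn3-low cells, and the 2 Ins1-RFP+ points of Cldn10 lie apart at 3.77 and 21.7 CPM.

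Per kilobase of transcript, which allows genes to be compared, the leading claudin changed. Cldn6 made up 36.6% ± 0.67 of the summed claudin RPKM (CPM per kilobase) in Ngn3-low libraries, followed by Cldn3 at 18.4% ± 0.32, Cldn4 at 14.1% ± 0.30 and Cldn7 at 13.3% ± 0.24 (SD, n = 2). In Ngn3-high libraries Cldn4 led at 43.1% ± 0.27, with Cldn6 at 24.1% ± 0.87 and Cldn3 at 3.84% ± 0.35. Ins1-RFP+ libraries had Cldn4 at 25.2% ± 2.00 and Cldn7 at 24.4% ± 2.31, which did not differ beyond their spread, and Cldn6 at 15.7% ± 0.59. The same exchange of Cldn3 for Cldn4 showed in the summed single cells, where Cldn4 took 6.38% in WT Ngn3-low and 25.1% in WT Ngn3-high cells, and Cldn3 18.6% and 4.05%. There Cldn6 stayed the leading claudin in both gates, at 51.6% and 37.1%.

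**Figure D2:**
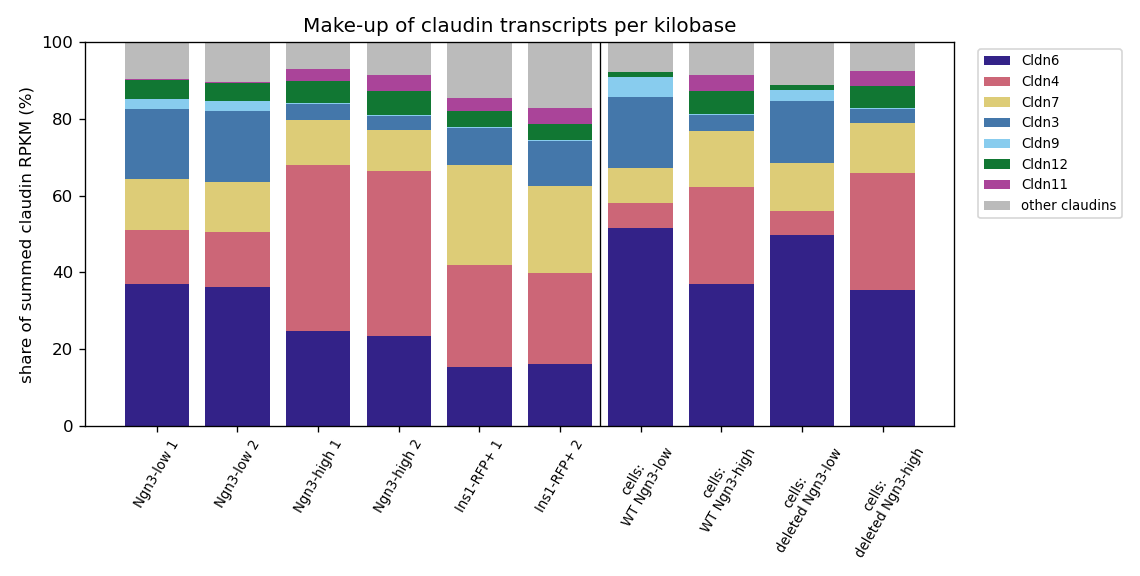
Share of the summed claudin RPKM taken by 7 claudins in each bulk library and, right of the line, in counts summed over each single-cell group; grey holds the other genes listed as claudins, Cldnd1 and Tmem114 included. Cldn4 widens from 14.1% to 43.1% of the total between bulk Ngn3-low and Ngn3-high libraries while Cldn3 shrinks from 18.4% to 3.84%.

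Of the genes beside the claudins, Tjp1 did not pass the test in Ngn3-high against Ngn3-low cells, whereas Tjp3, Ocln and Epcam fell. Tjp1 (ZO-1) was at 211 and 226, 222 and 248, and 206.5 and 199.8 CPM and passed the test in no comparison. Tjp3 (ZO-3), found mainly in epithelia, fell from 30.01 and 32.5 to 9.55 and 7.95 CPM and rose again to 18.2 and 18.1 in Ins1-RFP+ cells.

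Ocln and Epcam, which encode membrane proteins, fell by less than 1 on the log2 scale. Ocln (occludin) went from 78.5 and 80.5 to 43.5 and 51.8 CPM (−0.66, SE 0.12, adjusted p 0.00155). Epcam, an epithelial adhesion protein that binds claudins, went from 413 and 451 to 286 and 326 CPM (−0.42, SE 0.12, adjusted p 0.0159). Its call was lost without Ngn3-low library 1 (−0.45, adjusted p 0.0570), Ngn3-low library 2 (−0.37, adjusted p 0.112) or Ngn3-high library 1 (−0.35, adjusted p 0.0596). Of 17 partner genes of tight junctions 2 were higher and 9 lower in Ngn3-high cells, beside 27.7% and 30.2% of all genes. Cgn (cingulin, which links tight junctions to actin and microtubules) fell from 221 ± 2.58 to 58.1 ± 9.49 CPM and its relative Cgnl1 from 147 ± 3.35 to 36.2 ± 0.36 CPM (SD, n = 2). The scaffold gene Magi1 fell from 131 ± 12.6 to 29.1 ± 0.80 CPM.

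Cadherins split into genes lost on entry to the Ngn3-high state and genes gained there or in Ins1-RFP+ cells. Against Ngn3-low cells 6 of 15 tested cadherins were higher and 8 lower in Ngn3-high cells, beside 27.7% and 30.2% of all genes. Cdh1 (E-cadherin) was at 904 and 878 CPM in Ngn3-low, 465 and 472 in Ngn3-high and 771 and 653 in Ins1-RFP+ libraries. It dipped without overlap, by 0.85 on the log2 scale (SE 0.14, adjusted p 0.000886), and came back by 0.69 (SE 0.14, adjusted p 0.00362), so that Ins1-RFP+ and Ngn3-low libraries did not differ by the test (−0.16, adjusted p 0.334). Cdh3 (P-cadherin), a cadherin of progenitor and basal epithelia, fell at each step. It was at 257 and 231, 28.2 and 26.5, and 5.28 and 4.18 CPM, differences of −3.07 (SE 0.14) and −2.44 (SE 0.15). Cdh6 (K-cadherin) fell from 47.7 and 50.5 to 1.84 and 3.18 CPM and stayed low at 2.51 and 2.31.

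Cdh2 (N-cadherin) belonged to the Ins1-RFP+ cells. Its levels were 22.6 and 19.96 CPM in Ngn3-low, 27.2 and 33.7 in Ngn3-high and 153 and 137 in Ins1-RFP+ libraries. The rise into Ins1-RFP+ cells was 2.34 on the log2 scale (SE 0.14, adjusted p 1.12e-05). The earlier rise of 0.59 (adjusted p 0.00819) was lost without Ngn3-low library 2 (0.49, adjusted p 0.0643). Cdh22, a cadherin known mostly from brain, rose at each step, from 1.18 and 1.31 to 3.32 and 3.43 and then 15.2 and 17.2 CPM. Cdh7, another neural cadherin, had no read in Ngn3-low cells, 0.53 and 0.59 CPM in Ngn3-high and 3.52 and 2.83 in Ins1-RFP+ cells, at least 32.03-fold above Ngn3-low cells.

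Other cadherins peaked or dipped in between. Cdh4 (R-cadherin) rose from 5.18 and 3.35 to 23.96 and 24.6 CPM (2.57, SE 0.25) and was at 14.3 and 11.1 in Ins1-RFP+ cells. That later fall of 0.85 (adjusted p 0.0162) was lost without either Ngn3-high library (adjusted p 0.0720 and 0.0688). The rise of Cdh4 was not seen in summed WT single cells, at 4.5 CPM in Ngn3-low and 2.32 in Ngn3-high cells. Deleted cells had 0.02 and 7.78 CPM, and at most 6 cells of a group reached 10 CPM. Cdh8 dipped, at 7.71 and 8.26, 0.65 and 1.00, and 17.2 and 12 CPM, differences of −3.21 (SE 0.33) and 4.25 (SE 0.32). Cdh11, a mesenchymal cadherin, fell from 22.2 and 16.3 to 4.75 and 8.70 CPM, a call lost without Ngn3-low library 1 (−1.18, adjusted p 0.0536) or Ngn3-high library 1 (−1.10, adjusted p 0.0713). Mesenchymal markers in these libraries summed to 189 and 129 against 64.5 and 98.9 CPM, and their part in the Cdh11 value was not tested. Cdh16 and Cdh17, cadherins of kidney and gut epithelium, fell from 16.6 and 13.9 to 5.22 and 3.93 and from 7.15 and 19.6 to 1.008 and 1.09 CPM. The Cdh17 difference of −3.57 became −2.70 without Ngn3-low library 2. Cdh24 did not pass the test on entry (0.54, adjusted p 0.0634) and fell later, from 38.97 and 26.1 to 12.3 and 11.4 CPM (−1.38, adjusted p 0.00141).

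**Figure D3:**
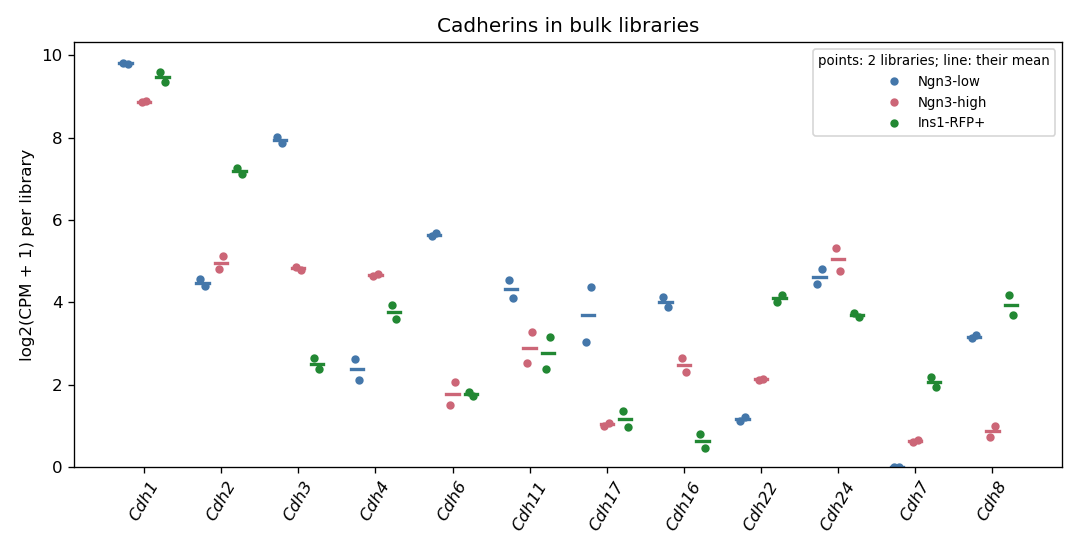
Levels of 12 cadherins in the 6 bulk libraries, as log2(CPM + 1); points are libraries, lines the mean of 2. Cdh3 and Cdh6 drop after the Ngn3-low stage, Cdh2 and Cdh22 are highest in Ins1-RFP+ cells, and Cdh1 and Cdh8 dip in Ngn3-high cells.

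Per kilobase Cdh1 was the main cadherin throughout, at 64.5% ± 0.09 of the summed cadherin RPKM in Ngn3-low, 74.5% ± 1.10 in Ngn3-high and 76.3% ± 1.04 in Ins1-RFP+ libraries (SD, n = 2). Behind it, Cdh3 was second in Ngn3-low libraries, Cdh24 in Ngn3-high libraries at 8.40% ± 2.32, and Cdh2 in Ins1-RFP+ libraries. Cdh24 held 2.82% ± 0.58 in Ngn3-low and 2.07% ± 0.10 in Ins1-RFP+ libraries. In the order of the groups, Cdh3 held 19.7% ± 1.10, 4.85% ± 0.19 and 0.56% ± 0.03, and Cdh2 held 1.41% ± 0.10, 4.43% ± 0.69 and 14.2% ± 0.38. Of 7 catenin genes, the cytoplasmic partners of cadherins, 3 were higher and 1 lower in Ngn3-high cells. Over all genes tested 27.7% were higher and 30.2% lower. Jup (plakoglobin, shared with desmosomes) rose from 169 ± 2.05 to 230 ± 18.2 CPM and fell to 111 ± 7.63 in Ins1-RFP+ cells (SD, n = 2). Ctnnb1 (beta-catenin) did not pass the test on entry (−0.28, adjusted p 0.0944). Of 6 tested desmosome genes 5 were lower and 0 higher, with Dsg2, a desmosomal cadherin, at 204 ± 5.03 and 74.9 ± 6.38 CPM. Among 4 nectins, adhesion proteins that work beside cadherins, Pvrl1 (nectin-1) rose from 38.9 ± 0.04 to 157 ± 16.7 CPM.

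Most integrins were lower in bulk Ngn3-high cells. Of 20 tested integrin genes 1 was higher and 15 lower, including all 7 beta chains, all 4 alpha chains that bind the RGD motif of fibronectin and vitronectin, and both Itga4 and Itga9. Their median log2 difference was −1.84, and among all genes tested 27.7% were higher and 30.2% lower. Itga6, a laminin receptor chain, fell from 331 and 314 to 103 and 119 CPM (−1.46, SE 0.17, adjusted p 1.39e-04) and was at 82.7 and 121 in Ins1-RFP+ cells. Itga3, also a laminin receptor chain, did not pass the test on entry, at 43.1 and 45.9 against 44.5 and 44.7 CPM. Itgb4, the partner of alpha-6 in hemidesmosomes, fell from 33.7 and 43.1 to 2.08 and 2.01 CPM (−4.14, SE 0.55, adjusted p 2.73e-04). In Ins1-RFP+ cells it read 3.64 CPM in library 1 and 13.8 in the acinar-rich library 2, a rise of 2.15 that became 0.93 (adjusted p 0.0232) without library 2 and lost its call without either Ngn3-high library (adjusted p 0.0836 and 0.0747).

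Itgb1, the beta chain shared by most of these receptors, was at 593 and 558 CPM in Ngn3-low, 359 and 437 in Ngn3-high and 357 and 380 in Ins1-RFP+ libraries. Its fall of 0.45 (adjusted p 0.0197) was lost without Ngn3-low library 1 (−0.38, adjusted p 0.129), Ngn3-low library 2 (−0.51, adjusted p 0.0522) or Ngn3-high library 1 (−0.34, adjusted p 0.0870). The less abundant beta chains fell further. Itgb5 went from 108 and 95.5 to 15.95 and 19.8 CPM and rose to 46.9 and 41.1 in Ins1-RFP+ cells, and Itgb6 went from 28.9 and 27.9 to 4.21 and 6.27 CPM. Itgb1 therefore held 75.4% ± 0.26 of the summed beta chain RPKM in bulk Ngn3-low and 93.0% ± 0.17 in bulk Ngn3-high libraries (SD, n = 2). The difference was smaller in summed single cells, where Itgb1 held 90.0% in WT Ngn3-low and 97.6% in WT Ngn3-high cells. In deleted cells it held 87.7% and 96.9%. Itgb5 held 16.5% ± 0.80 in bulk Ngn3-low libraries and 0.86% in WT single Ngn3-low cells.

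The integrin that rose was Itga11, a collagen receptor chain known from mesenchymal cells. It was at 1.69 and 0.90 CPM in Ngn3-low, 25.6 and 21.9 in Ngn3-high and 0.31 and 0.67 in Ins1-RFP+ libraries. The rise was 4.22 on the log2 scale (SE 0.34, adjusted p 1.50e-05), or 4.82 without Ngn3-low library 1, and the fall was 5.52 (SE 0.39, adjusted p 1.98e-05), or 6.11 without Ins1-RFP+ library 2. Mesenchymal markers summed to 64.5 and 98.9 CPM in Ngn3-high and 189 and 129 CPM in Ngn3-low libraries, and their part in the Itga11 value was not tested. In Ins1-RFP+ cells Itgav, the vitronectin receptor chain, rose from 59.96 and 80.9 to 158 and 155 CPM (1.24, SE 0.14). Its small fall on entry (−0.43, adjusted p 0.0288) was lost without Ngn3-low library 1 (adjusted p 0.137), Ngn3-low library 2 (adjusted p 0.0699) or Ngn3-high library 1 (adjusted p 0.0920). In Ins1-RFP+ libraries it held 34.8% ± 3.70 of the summed alpha chain RPKM, which did not differ beyond the spread from Itga6 at 36.5% ± 6.45 (SD, n = 2).

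Most ligands and inner partners of integrins fell as well, where 27.7% of all genes tested were higher and 30.2% lower. Of 15 tested laminin, collagen IV, nidogen and fibronectin genes 13 were lower and 0 higher in Ngn3-high cells, with Lama1 at 112 ± 15.2 and 18.7 ± 1.77 CPM and Nid2 at 86.8 ± 5.49 and 3.28 ± 0.14 CPM (SD, n = 2). Of 13 tested adaptor genes 9 were lower and 2 higher, with Tln2 (talin-2, which activates integrins) at 177 ± 9.19 and 15.4 ± 0.23 CPM. Fermt1 (kindlin-1), its epithelial partner in activation, fell from 57.1 ± 5.86 to 10.01 ± 0.74 CPM. In the same libraries white blood cell markers fell from 2816 and 2339 to 36.7 and 27.4 CPM, and endothelial markers from 486 and 531 to 15.7 and 9.87 CPM. Their part in the integrin values was not tested.

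**Figure D4:**
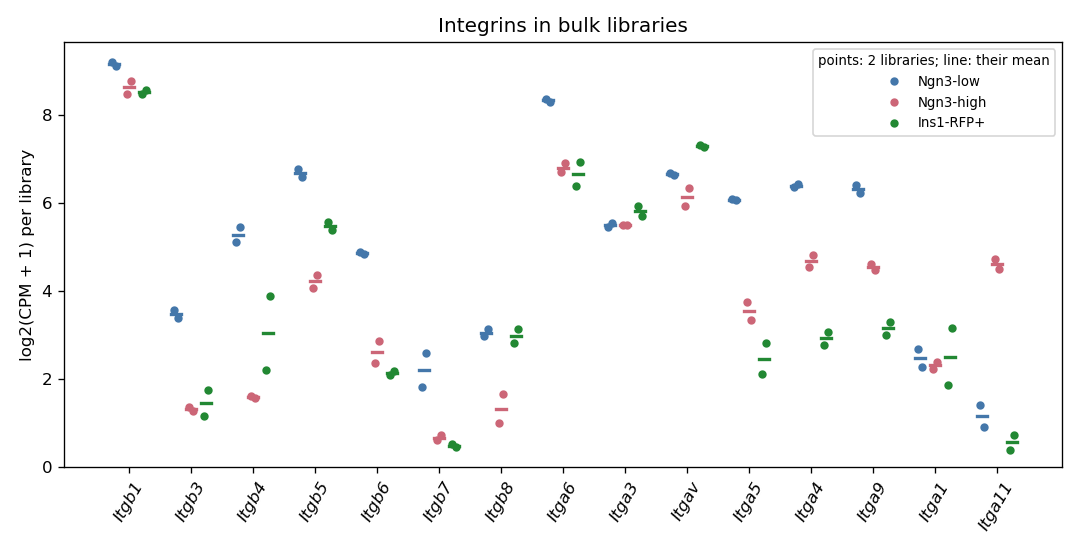
Levels of 15 integrin chains in the 6 bulk libraries, as log2(CPM + 1); points are libraries, lines the mean of 2. Itga11 is high in Ngn3-high cells only (25.6 and 21.9 CPM), Itga4, Itga5 and Itga9 decline over the 3 groups, and Itgb5 and Itgav are higher in Ins1-RFP+ than in Ngn3-high cells.

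From Ngn3-high to Ins1-RFP+ cells the partner genes moved both ways, as the members did. Over all genes tested 26.1% rose and 24.9% fell, so counts near these shares say little about the partner genes as such. Of the 15 tested matrix ligand genes 5 rose and 5 fell, with Lama4 (laminin alpha-4, found in vessel walls and around muscle) at 1.99 ± 0.38 and 17.1 ± 6.65 CPM. Pkp4 (plakophilin-4, a catenin relative) rose from 51.3 ± 2.67 to 190.1 ± 21 CPM. Of 17 tight junction partner genes 1 rose and 7 fell, with Jam3, a junctional adhesion molecule, at 49.6 ± 0.596 and 16.9 ± 1.47 CPM. Of the 13 adaptor genes 3 rose and 4 fell.

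Against Ngn3-low cells, Ins1-RFP+ cells had 12 members higher and 28 lower, beside 30.4% and 35.5% of all genes tested. Cldn6 (−2.15, SE 0.13), Cdh3 (−5.51, SE 0.16) and Itga5 (−3.67, SE 0.27), the fibronectin receptor chain, were among the lower. Cdh2 (2.93, SE 0.15), Cldn11 (3.65, SE 0.24) and Itgav (0.81, SE 0.14) were among the higher. Cldn4 did not pass the test (−0.07, adjusted p 0.679). Of the other tested members, Cdh13, Cdh26, Cldn1, Cldn18, Itga7 and Itga10 stayed under 5 CPM in every bulk library. Itga1, Itga2 and Itga2b stayed under 20 CPM. Cldnd1 was at 69.2 and 64.4 CPM in Ngn3-low, 60.8 and 73.5 in Ngn3-high and 50.4 and 47.3 in Ins1-RFP+ libraries. It passed the test only between the last 2 groups (−0.37, SE 0.13, adjusted p 0.0378). In the same order, Cldn2 was at 4.28 and 4.42, 2.08 and 2.34, and 10.6 and 8.87 CPM. Cdh23 was at 4.05 and 3.60, 9.43 and 9.79, and 5.34 and 8.13 CPM.

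In single cells the same gates were compared with 1 sample each, so no test was made. A member counted as past 2-fold where the log2 ratio of summed CPM, 1 CPM being added to each side, reached 1 and the higher group had 5 CPM. In WT cells 8 members were higher and 21 lower past 2-fold in Ngn3-high cells among 36 at 5 CPM, beside 14% and 19% of all 11792 genes at 5 CPM. In Jmjd3-deleted cells 9 were higher and 19 lower among 38, beside 15.3% and 18.7%. Intervals given here are exact 95% intervals and cover counting error only.

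For most of the members lower in Ngn3-high cells, fewer cells reached 10 CPM, the level at which a cell counts as reading a gene. Some cells below that level still had reads. Cdh3 reached 10 CPM in 48 of 49 WT Ngn3-low cells (98%, 89.2 to 99.95) and in 10 of 59 WT Ngn3-high cells (16.95%, 8.44 to 28.97), and the highest of the latter still had 614 CPM. Cdh1 was at 588 CPM (580 to 597) and 173 CPM (169 to 177) in sum, yet 48 of the 59 Ngn3-high cells still read it at 10 CPM or more. Cdh6 was read in 34 of 49 and 1 of 59 cells. Cldn10, at 118 and 0.41 CPM in sum, was read in 42 of 49 Ngn3-low and 1 of 59 Ngn3-high cells. Cldn3 was read in all 49 Ngn3-low cells and in 46 of 59 Ngn3-high cells, with a median cell at 324 and 29.2 CPM. Cldn6, whose bulk difference between these gates did not pass the test, was lower past 2-fold in single Ngn3-high cells, at 1184 CPM (1173 to 1196) against 582 CPM (574.5 to 589) in WT and 1224 against 575 CPM in deleted cells. Its title number values did not overlap in WT cells, at 989 to 1369 against 502 to 692 CPM, although 58 of 59 WT Ngn3-high cells read it at 10 CPM.

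The genes higher in Ngn3-high cells were read in part of them. Cldn11 reached 10 CPM in 34 of 59 WT Ngn3-high cells (57.6%, 44.1 to 70.4) and 2 of 49 Ngn3-low cells (4.08%, 0.50 to 13.98), with sums of 78.8 and 2.51 CPM. Cldn23 did so in 33 of 59 and 4 of 49 cells. Cldn4 was read in 52 of 59 and 47 of 49 cells, and its sums of 473 CPM (466 to 479) and 176 CPM (171 to 181) went with medians of 303 and 152 CPM per cell. Of the 34 cells with Cldn11, 31 also read Cldn4 and 20 read Cldn23. Cldn12 was read in 50 of 59 WT Ngn3-high and 29 of 49 WT Ngn3-low cells, with sums of 240.5 and 81.5 CPM. Itga11 was read in 12 of 59 WT Ngn3-high cells, and all 12 read Cldn4 and Cldn12. Over all 59 cells Cldn4 was read in 52, Cldn12 in 50 and Cldn23 in 33. With shares this high and so few cells, the joint counts cannot show whether the genes are linked, and this was not tested. In the deleted Ngn3-high cells Itga11 was read in 8 of 44 and Cldn11 in 22 of 44, with 0 cells in common, whereas 7 WT cells had both. These counts are too few to compare, and the difference was not tested.

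**Figure D5:**
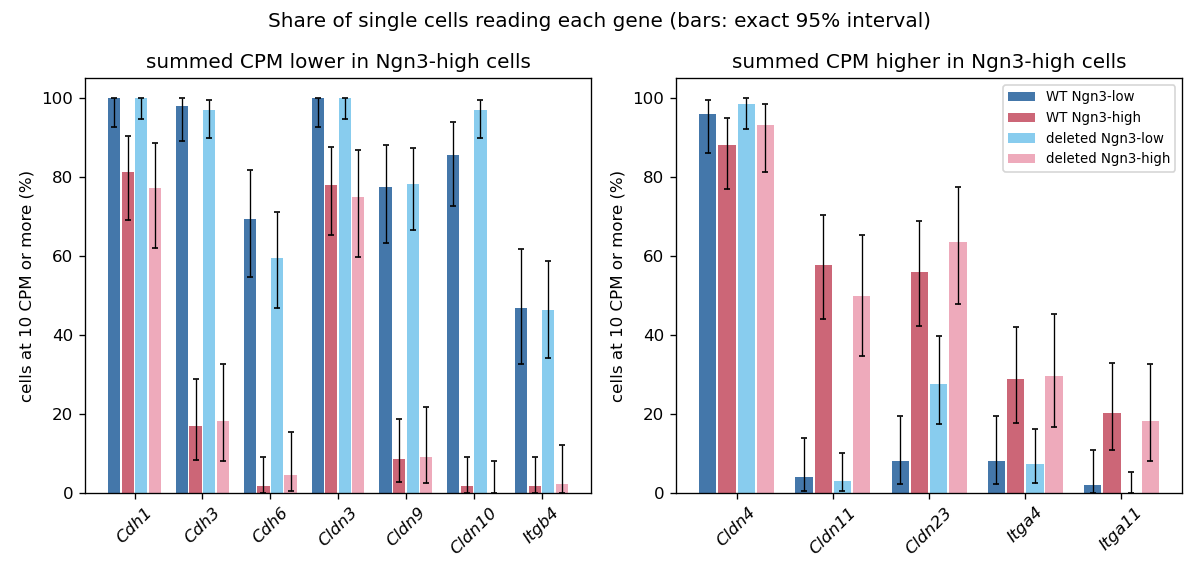
Share of cells at 10 CPM or more for 12 members in the 4 single-cell groups; bars are shares, whiskers exact 95% intervals. Cdh3, Cdh6, Cldn9, Cldn10 and Itgb4 are read in few Ngn3-high cells of either genotype, and the intervals of Cldn11 and Cldn23 overlap between WT and deleted Ngn3-high cells.

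Integrins gave the main disagreement between bulk and single cells. Itga4, a receptor chain for fibronectin and VCAM1 that leukocytes also carry, was at 81.4 and 85.2 CPM in bulk Ngn3-low and 22.4 and 27.3 in bulk Ngn3-high libraries. In WT single cells it was the other way round, at 1.58 CPM (1.17 to 2.07) in Ngn3-low and 19.7 CPM (18.4 to 21.1) in Ngn3-high cells, and deleted cells had 4.85 and 19.8 CPM. Itga9, its close relative, likewise fell in bulk from 83.8 and 74.0 to 23.7 and 21.3 CPM, while summed single WT cells had 2.63 and 6.78 CPM and deleted cells 2.92 and 10.1. Itga4 was higher in Ngn3-high cells in each of the title numbers that both gates share.

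Several other chains were clear in bulk Ngn3-low cells and scarcely read in single Ngn3-low cells. Itgb5 had 2.91 CPM in WT single Ngn3-low cells against 108 and 95.5 in bulk, Itgb3 0.34 against 10.98 and 9.49, and Itgb7 0.03 against 2.53 and 5.07. Itga8 had no read in any of the 221 cells and 3.89 and 3.76 CPM in bulk Ngn3-low libraries. White blood cell markers summed to 6.03 CPM in the WT single Ngn3-low cells against 2816 and 2339 in bulk, and all 11 of them had a read there. Endothelial markers summed to 45.1 CPM, with 4 of 11 at 0. Beta chains known from epithelia were closer: Itgb4 was at 27.99 CPM in single and 33.7 and 43.1 in bulk Ngn3-low cells, and Itgb6 at 22.9 against 28.9 and 27.9. The part of other cell types in the bulk values of Itga4, Itga9, Itgb3, Itgb5 and Itgb7 was not tested, and the 2 assays differ in chemistry and depth.

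The deleted cells were first checked for Kdm6b itself. It was at 131 CPM (128 to 135) in WT and 55.5 CPM (53.5 to 57.6) in deleted Ngn3-low cells, and at 265 CPM (260 to 270) in WT and 107 CPM (103 to 110) in deleted Ngn3-high cells. Reads remained, and the sources used here do not say which exons were removed. Few adhesion genes passed 2-fold between genotypes, but those higher in deleted cells were a larger share of members than of all genes. With 1 sample per group this was not tested. In Ngn3-low cells 4 of 32 members at 5 CPM were higher past 2-fold and 1 lower in deleted cells, beside 1.7% and 2.65% of all genes. In Ngn3-high cells 3 of 28 were higher and 0 lower, beside 2.96% and 2.76%.

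Cldn8 was the Ngn3-low difference that met the single-cell naming rule of 20 CPM, 25% of cells and 1 direction in shared title numbers. It was at 23.7 CPM (22.01 to 25.4) in WT and 62.3 CPM (60.2 to 64.5) in deleted cells, and was read in 18 of 49 and 35 of 69 cells. These shares, 36.7% (23.4 to 51.7) and 50.7% (38.4 to 62.98), have overlapping intervals. By title number, the only label that subdivides a group, WT values ran from 8.64 to 27.6 and deleted values from 53.1 to 93.3 CPM, without overlap. Cldn23 was at 2.38 and 16.5 CPM, with title number values of 0 to 7.98 and 15.7 to 18.02 CPM. Its shares of cells were 8.16% (2.27 to 19.6) and 27.5% (17.46 to 39.6), whose intervals overlap. Cdh8 (2.41 and 10.95 CPM) and Itgb8 (5.54 and 12.4 CPM) were higher and Cldn2 (8.75 and 3.30 CPM) lower, each read in at most 11 cells of a group and with overlapping title number values. Cldn10 was higher by less than 2-fold, at 118 and 196 CPM, and in 42 of 49 and 67 of 69 cells. These were named after their values were seen, other than Cldn8.

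The 3 members past 2-fold in deleted Ngn3-high cells were cadherins, and each rested on few cells. Cdh2 was at 8.27 CPM in 7 of 59 WT and 28.1 CPM in 8 of 44 deleted cells. Its title number values ran from 3.40 to 15.9 and from 2.19 to 48.3 CPM and overlap. Cdh4 was at 2.32 and 7.78 CPM, in 3 of 59 and 6 of 44 cells, and its title number values of 1.49 to 2.76 and 3.08 to 10.4 CPM did not overlap. Cdh23 was at 1.15 and 6.97 CPM, in at most 3 cells of a group, and its title number values overlap. Of the claudins higher in Ngn3-high cells, Cldn11 and Cldn23 had overlapping counting intervals in both genotypes, with Cldn11 at 78.8 (76.2 to 81.5) and 78.1 (75.1 to 81.2) CPM and Cldn23 at 52.7 (50.6 to 54.9) and 52.3 (49.8 to 54.8) CPM. Cldn4 was at 473 and 601 CPM, with title number values of 311 to 650 and 303 to 741 CPM that overlap.

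Cdh2 also varied widely within a group. In WT Ngn3-low cells its title number values ran from 0.34 to 97.6 CPM, the highest from title number 4, which WT Ngn3-high cells lack. In the title numbers shared by both gates it was higher in WT Ngn3-high cells, at 8.18 against 6.20 and 15.9 against 0.34 CPM, while over all cells it was lower, at 8.27 against 29.9 CPM. The direction of the single-cell Cdh2 difference therefore depends on which cells are included.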

How the data were processed

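Per the labels' protocols, bulk RNA of sorted cells was poly(A)-selected and sequenced from strand-specific libraries, and single cells were amplified by Smart-seq2 with ERCC RNA. Build mm10, alignment tools TopHat2 2.1.0 and Bowtie2, the counter HTSeq 0.6.0 and, for bulk, DESeq 1.20.0 are listed in the submitters' processing notes. The strand setting of the counting is not given in the sources used here. The deposited values used are whole-number counts per gene from the authors. The authors' deposited RPKM were not used; RPKM here were computed from counts and the tables' gene lengths. CPM leave out 92 ERCC entries. Coordinates are RefSeq GRCm38.

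Bulk counts were tested with edgeR 4.0.16 (TMM, filterByExpr, quasi-likelihood, all 6 libraries, Benjamini-Hochberg at 0.05 over 15684 genes), with DESeq2 1.42.0 and other settings as alternatives, after a check on simulated data. Libraries of a group differed beyond sampling noise. A library without a read has a floor of 3 counts, 0.169 to 0.251 CPM. All 221 cells passed 100000 reads in genes (380478 to 1949839). Members and lists were chosen with earlier results of these data known. Named in full were Cdh1, Cdh2, Epcam, Ocln, Tjp1, Tjp3 and Itgb1 and, per list and bulk comparison, up to 4 called members (3 for partner lists) of largest change at 10 CPM. For single cells these were members past 2-fold at 20 CPM and 25% of cells, with 1 direction in all title numbers that the groups share. Other members were named after their values were seen. The values of 1 member are not reported here. The 31 chromatin samples were not analysed here.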

Additional observations from a re-analysis of the deposited data

How the results depend on the processing

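Over 12 alternative settings the bulk counts stayed within 1.5 times of those reported, with 1 exception: the members higher in Ins1-RFP+ than Ngn3-high cells numbered 20, and 13 without Ngn3-high replicate 2, the lowest of a range of 13 to 17 when each library was left out. Without single libraries, the other counts ranged from 14 to 16 (lower, Ins1-RFP+ against Ngn3-high), 11 to 13 and 28 to 34 (higher and lower, Ngn3-high against Ngn3-low), and 9 to 12 and 25 to 30 (Ins1-RFP+ against Ngn3-low). Total counts without scaling moved the median log2 difference of all genes between Ins1-RFP+ and Ngn3-low cells from −0.08 to −0.24. Of 984 values of named members under these settings 0 turned direction with a call, and 30 lost theirs.

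With the replicate number as a block, 12 members were higher and 35 lower in Ngn3-high against Ngn3-low cells, 21 and 17 in Ins1-RFP+ against Ngn3-high, and 12 and 27 in Ins1-RFP+ against Ngn3-low. Same-numbered libraries did not deviate together (r = 0.06, 0.09 and 0.01). With 2 libraries per group this cannot settle whether the numbers pair them, and the labels do not say.

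In single cells a minimum of 20 CPM left 4 members higher in each gate comparison, 1 higher and 0 lower for deleted against WT Ngn3-low cells, and 1 higher for Ngn3-high cells. For deleted against WT Ngn3-low cells the members lower numbered 2 by the mean of the cells' own CPM and 0 with shared title numbers only. They ranged from 2 to 3 in the leave-one-out settings over title numbers that moved the count. For Ngn3-high cells leave-one-out gave 7 higher without title number 1, and 1 to 2 lower without title number 5 or 6. The cause of these moves was not tested. Depth limits what can be said of members under a few CPM, where 1 cell can carry a group's sum.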
